A study of Mus musculus with 2 samples.

Results

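The nuclear factor I (NFI) family was examined in RNA counts of single nuclei from the whole brain of fetal mice. Its members are the genes Nfia, Nfib, Nfic and Nfix, 4 of the 55416 features in the count matrices, found by their symbols. The study has 2 libraries, 1 from a sample labelled wildtype and 1 from a sample labelled Cav1 knockout, in which the gene for the membrane protein caveolin 1 was to be removed. The labels give both samples as fetal whole brain and name no strain, gestational day, sex or number of animals. In this assay each RNA copy carries a unique molecular identifier (UMI), so a UMI count is a count of captured RNA molecules. A nucleus was kept when it showed 500 genes or more and no more than 5% mitochondrially encoded UMIs, which left 6686 nuclei with 17205381 UMIs in the wildtype-labelled library and 6680 nuclei with 19878903 UMIs in the knockout-labelled library. The median kept nucleus held 2134 and 2366 UMIs. The libraries shared 43 cell barcode sequences, 10 of them among the kept nuclei of both. The targeted gene did not separate the labels: Cav1 counted 71 UMIs under the wildtype label and 80 under the knockout label, or 4.13 and 4.02 counts per 1000000 UMIs (CPM), so the libraries are called by their labels throughout. With 1 library per genotype no test was possible. All ranges in brackets are exact 95% intervals for counting error alone, and nuclei were not treated as replicates.

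NFI proteins are transcription factors that bind DNA as dimers at a palindrome of TTGGC and its reverse complement, and each of the 4 genes makes several isoforms. In the developing brain NFIA and NFIB are known for the switch of neural progenitors from making neurons to making glia and for the formation of the hippocampus and the midline tracts. NFIX is known for the timing of progenitor differentiation in the forebrain, whereas NFIC is best known from tooth root development.

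Positions were read from the GENCODE annotation on GRCm39, the build named in the submitters' processing notes. Nfia spans bases 97660971 to 98007111 of chromosome 4 (plus strand), and Nfib, on the minus strand of the same chromosome, 82208410 to 82623987. Nfic lies on the minus strand of chromosome 10 at 81232020 to 81291469, and Nfix on the minus strand of chromosome 8 at 85426505 to 85527046. The genes span 346.1, 415.6, 59.5 and 100.5 kb. Several annotated genes overlap them. The 5′ end of Nfia overlaps E130114P18Rik on the opposite strand, with 7112 and 6891 UMIs of its own in the wildtype-labelled and knockout-labelled libraries. The long noncoding RNA gene Gm11266 lies antisense inside Nfib and held 2124 and 1909 UMIs. The 3′ end of Nfix overlaps Trmt1 on the opposite strand, with 603 and 646 UMIs. Whether the counting used strand is not given in the sources used here, so reads of these pairs are uncertain in their assignment.

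Because Nfia and Nfix shared one pattern over the classes of nuclei below and Nfic did not, 1 annotated promoter window of each of these genes is shown. Each window holds the 250 bases before a RefSeq transcription start (table of build GRCm38.p6), 5′ to 3′ in the direction of the gene, with CpG dinucleotides in capitals. The windows matched GRCm39 exactly, for Nfia at chr4:97469930-97470179 (plus strand), for Nfix at chr8:85506712-85506961 (minus strand) and for Nfic at chr10:81263008-81263257 (minus strand). The Nfia window lies upstream of the span that GENCODE gives the gene, inside E130114P18Rik, and the Nfic and Nfix windows lie within their genes. The table has 1 start for Nfia, 1 for Nfic and 4 for Nfix, and no entry for Nfib.
Nfia: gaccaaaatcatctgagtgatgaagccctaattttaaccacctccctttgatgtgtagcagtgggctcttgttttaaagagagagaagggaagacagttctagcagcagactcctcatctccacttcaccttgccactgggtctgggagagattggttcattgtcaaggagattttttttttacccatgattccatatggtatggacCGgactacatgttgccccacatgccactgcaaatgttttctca
Nfix: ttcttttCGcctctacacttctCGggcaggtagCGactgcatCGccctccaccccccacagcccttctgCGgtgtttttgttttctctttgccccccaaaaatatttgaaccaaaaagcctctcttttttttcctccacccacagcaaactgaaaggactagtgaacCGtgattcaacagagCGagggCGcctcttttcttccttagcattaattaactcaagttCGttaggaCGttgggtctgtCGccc
Nfic: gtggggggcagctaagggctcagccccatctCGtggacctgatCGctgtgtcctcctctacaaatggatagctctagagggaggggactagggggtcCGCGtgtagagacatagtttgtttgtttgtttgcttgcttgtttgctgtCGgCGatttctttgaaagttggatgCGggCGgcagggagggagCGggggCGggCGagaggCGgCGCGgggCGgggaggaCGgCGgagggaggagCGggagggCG
The Nfia window held 1 CpG and 44.8% G and C, the Nfix window 11 CpG and 49.2%, and the Nfic window 19 CpG and 63.2%, beside medians of 6 CpG and 52.4% over all 32851 windows of the table. The Nfix window shown had the most CpG of the 4. The other Nfix windows held 1, 7 and 4 CpG and 42%, 52.4% and 58.4% G and C. The NFI core motif, TTGGC on either strand, was in none of the 3 windows shown and once in each of 2 other Nfix windows, whereas 41.5% of all windows held it. The full palindrome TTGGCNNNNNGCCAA was in none of the 6 windows of the family and in 0.0365% of all windows. A UMI of a 3′ library does not show which start a transcript used.

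Over all kept nuclei Nfib and Nfia were among the most abundant nuclear RNAs. Nfia gave 1050 CPM [1035 to 1066] in the wildtype-labelled and 902 [889 to 915] in the knockout-labelled library, and ranked 54 and 74 among all features by UMIs. Nfib gave 1891 CPM [1870 to 1911] and 1574 [1557 to 1592], with ranks of 20 and 25. For Nfix the values were 266 CPM [258 to 274] and 213 [207 to 220], and for Nfic 25.7 [23.3 to 28.2] and 22.7 [20.6 to 24.9]. Divided by gene length, the order in the wildtype-labelled library was Nfib with 4.55 CPM per kb, Nfia with 3.03, Nfix with 2.65 and Nfic with 0.432. Per kb of annotated exon the order was the same, with 115, 93.1, 35.9 and 3.85 CPM per kb, and it held in the knockout-labelled library on both scales. This is also the order of the undivided values. Whether intronic reads were counted is not given, so neither scale is known to make the genes comparable.

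Nuclei were clustered on their RNA with the 4 members left out, and clusters were given a class name from marker genes, always as a likeness. Of 45 clusters, 29 took a name, in 17 classes, and 16 stayed unnamed, with 2434 wildtype-labelled and 3081 knockout-labelled nuclei. Since the names rest on these markers, their counts only describe the classes. In radial glia-like nuclei 9 of 13 radial glia markers were at least 2-fold above all other nuclei under the wildtype label and 10 under the knockout label. The same held for 7 of 8 intermediate progenitor markers and all 11 forebrain inhibitory neuron markers in their classes in both libraries. Cortical excitatory neuron-like nuclei had 7 and 8 of 12. The authors' own annotation was not used here.

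Nfia, Nfib and Nfix were highest in the cortical lineage, from radial glia (the stem cells of the fetal brain) over intermediate progenitors (the Eomes-positive cells that divide into cortical neurons) to cortical excitatory neurons, and several-fold lower in neurons of other kinds. In radial glia-like nuclei Nfia stood at 1922 CPM [1835 to 2013] in the wildtype-labelled and 1921 [1834 to 2012] in the knockout-labelled library. In cortical excitatory neuron-like nuclei it stood at 1978 CPM [1928 to 2030] and 1937 [1881 to 1995]. In other excitatory neuron-like nuclei, named from a list that includes Tcf7l2 and Ebf2, it stood at 198 CPM [180 to 217] and 245 [227 to 264]. Cortical over other excitatory neuron-like nuclei was thus a log2 ratio of 3.32 [3.19 to 3.46] and 2.98 [2.87 to 3.10] for Nfia. The same ratio was 3.11 [3.02 to 3.19] and 2.90 [2.82 to 2.98] for Nfib, and 2.49 [2.28 to 2.72] and 2.80 [2.58 to 3.03] for Nfix. For Nfic it was -0.33 [-0.95 to 0.29] and -0.11 [-0.73 to 0.49], with intervals that hold 0.

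**Figure D1:**
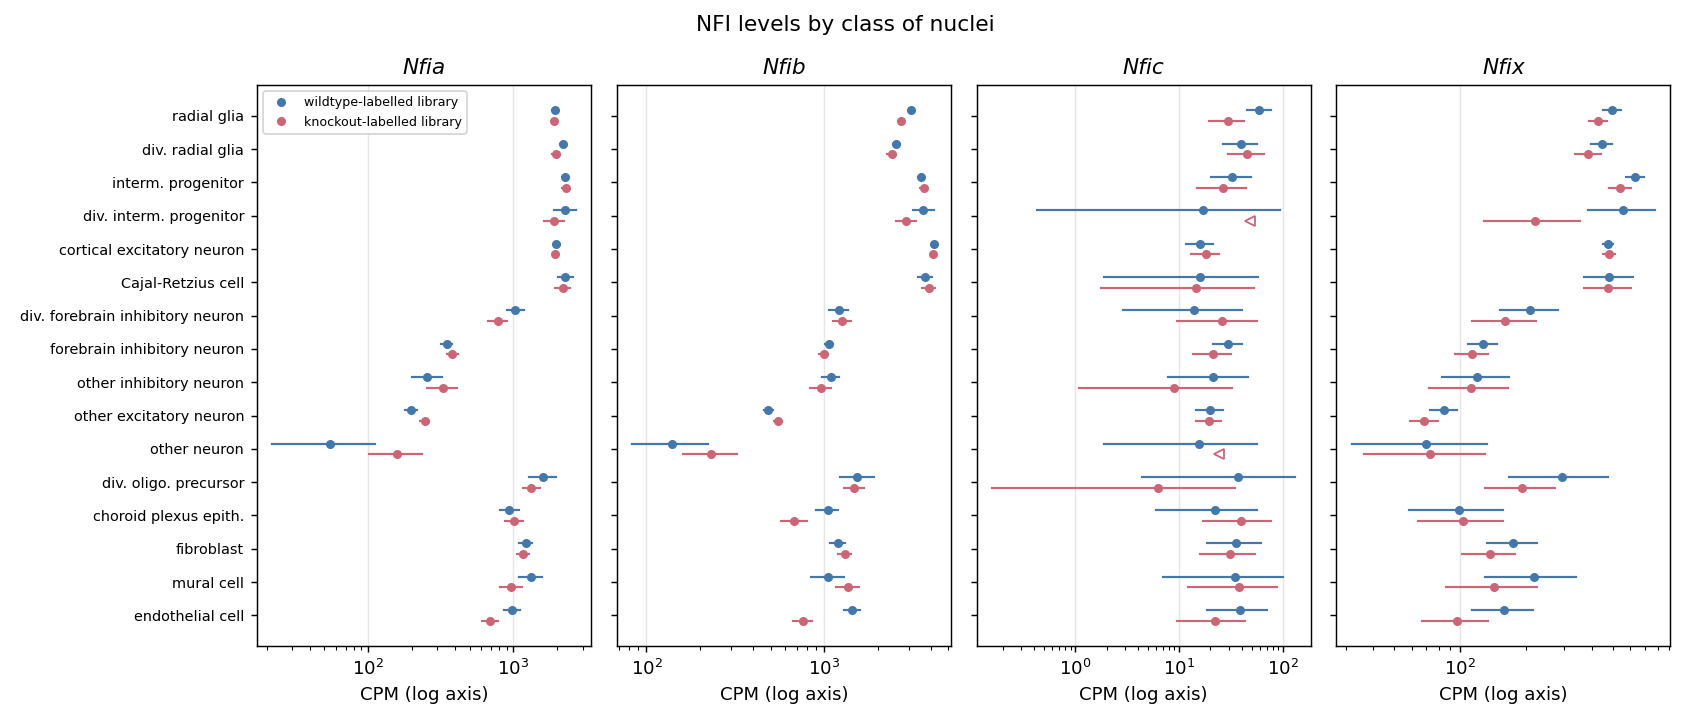
Level of each NFI member (CPM, log axis) in the 16 named classes with at least 50 nuclei. Points are the sums over nuclei of 1 library (blue wildtype-labelled, red knockout-labelled), lines are exact 95% Poisson intervals, and an open triangle marks the upper limit where the count was 0. Nfia, Nfib and Nfix are highest in the 6 uppermost classes, with Nfib at 4167 and 4091 CPM in cortical excitatory neuron-like nuclei, while Nfic stays under 60 CPM in every class drawn.

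Within the cortical lineage the members differed in where they were highest. Nfia was 2287 CPM [2175 to 2404] and 2297 [2174 to 2425] in intermediate progenitor-like nuclei, above radial glia-like nuclei by a log2 ratio of 0.25 [0.15 to 0.35] in the wildtype-labelled and 0.26 [0.15 to 0.36] in the knockout-labelled library. Cortical excitatory neuron-like nuclei were then below the progenitors, with log2 ratios of -0.21 [-0.29 to -0.13] and -0.25 [-0.33 to -0.16]. The order of Nfib was a steady climb, from 3074 and 2717 CPM in radial glia-like over 3506 and 3629 in intermediate progenitor-like to 4167 and 4091 in cortical excitatory neuron-like nuclei, with no overlap of the intervals of neighbours in either library. Nfix was highest in intermediate progenitor-like nuclei, at 629 CPM [571 to 691] and 540 [481 to 604], and radial glia-like nuclei stood at 495 [451 to 542] and 428 [388 to 472]. Cortical excitatory neuron-like nuclei had 474 CPM of Nfix [449 to 499] and 480 [452 to 508], so that Nfix in the first and last step of the lineage overlapped in both libraries. Nfia also overlapped between radial glia-like and cortical excitatory neuron-like nuclei, with log2 ratios of -0.04 [-0.12 to 0.03] and -0.01 [-0.09 to 0.07]. These last ratios moved with the clustering: in the knockout-labelled library that of Nfia went from 0.21 with a minimum of 200 genes to -0.23 without the second division of clusters, where that of Nfix was -0.79 in place of -0.16. Dividing radial glia-like nuclei, named in addition from mitosis genes such as Mki67 and Top2a, were below the non-dividing ones in Nfib, by log2 ratios of -0.28 [-0.36 to -0.19] and -0.18 [-0.28 to -0.09], and in Nfia the ratios were 0.19 [0.10 to 0.29] and 0.04 [-0.07 to 0.14]. The lower Nfib was found in only 1 of the 2 clusters of this class: cluster 20, with 112 and 90 nuclei, had 1337 and 1223 CPM, whereas cluster 17, with 168 and 109 nuclei, had 3183 CPM in each library, beside 3074 and 2717 in the non-dividing class.

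The cortical neuron clusters separated by member. Cluster 5, led by Dync1i1, Nin and Rgs6, had the highest Nfia of the 3, at 2284 and 2295 CPM. Cluster 6, led by Unc5d, 2600014E21Rik and Svet1, had the highest Nfib, at 4955 and 4855 CPM, and the highest Nfix, at 578 and 650 CPM. The 2 intermediate progenitor-like clusters also differed. Cluster 11 (Eomes, Neurog2, Rhbdl3) had more Nfia than cluster 15 (Eomes, Ust, Kif26b), by log2 ratios of 0.33 [0.19 to 0.48] and 0.53 [0.37 to 0.69], and less Nfib, by -0.35 [-0.47 to -0.23] and -0.42 [-0.56 to -0.29]. Cajal-Retzius cell-like nuclei, the early Reln-producing neurons of the cortical surface, were close to the cortical neurons in Nfix. It was 481 CPM [368 to 618] and 476 [368 to 607]. Nfib was 3713 CPM [3385 to 4064] and 3870 [3547 to 4215], with log2 ratios to the cortical neurons of -0.17 [-0.30 to -0.03] and -0.08 [-0.21 to 0.05]. Nfia, at 2278 and 2192 CPM, was above them by log2 ratios of 0.20 [0.03 to 0.37] and 0.18 [0.004 to 0.35].

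Forebrain inhibitory neuron-like nuclei, with Dlx genes and Gad2, held a middle place. Nfia was 347 CPM [317 to 380] and 381 [347 to 418] there, and Nfib 1070 [1015 to 1126] and 996 [940 to 1055]. Cortical excitatory neuron-like nuclei were above them by log2 ratios of 2.51 and 2.35 for Nfia, 1.96 and 2.04 for Nfib, and 1.90 and 2.09 for Nfix, in the wildtype-labelled and knockout-labelled library. In this branch the dividing cells had more Nfia than the others. Dividing forebrain inhibitory neuron-like nuclei stood at 1033 CPM [901 to 1178] and 782 [672 to 905], above the non-dividing ones by log2 ratios of 1.57 [1.33 to 1.80] and 1.04 [0.78 to 1.29], whereas the same ratio for Nfib was 0.17 [-0.02 to 0.36] and 0.34 [0.15 to 0.53]. Among other inhibitory neuron-like nuclei, named from a list that includes Gata3 and Pax8, the clusters stood apart. Cluster 31 (St18, Pax7, Otx2os1) had 2015 and 2024 CPM of Nfib and 635 and 758 of Nfia. Cluster 27 (Tfap2b, Pax7, Tmem132d) had 663 and 407 CPM of Nfib and 82.2 and 102 of Nfia. The class mean of these nuclei therefore describes neither cluster.

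In most of the remaining classes Nfia and Nfib were at intermediate levels. Fibroblast-like nuclei had 1218 and 1171 CPM of Nfia and 1191 and 1304 of Nfib. Nuclei like mural cells, endothelial cells or choroid plexus epithelium ranged from 694 to 1323 CPM of Nfia over both libraries. Dividing oligodendrocyte precursor-like nuclei, the Pdgfra-positive glial progenitors, had 1590 CPM of Nfia [1274 to 1961] in 21 nuclei and 1333 [1161 to 1524] in 49 nuclei, and their Nfib was below that of radial glia-like nuclei by log2 ratios of -1.0 [-1.33 to -0.69] and -0.87 [-1.07 to -0.68]. Of the 16 classes the Isl1-led other neuron-like nuclei (cluster 29) were lowest in Nfia and Nfib in both libraries, with 54.3 CPM [21.8 to 112] and 159 [102 to 236] of Nfia.

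The highest levels of Nfia, Nfib and Nfix were in a small cluster that took no name. Cluster 36, led by Col28a1, Synpr and Gm5087, held 29 nuclei of each library, with 3824 CPM of Nfia [3391 to 4296] and 5391 of Nfib [4875 to 5947] in the wildtype-labelled and 4975 [4514 to 5471] and 6575 [6043 to 7142] in the knockout-labelled library. Its Nfix was 743 CPM [560 to 967] and 818 [637 to 1033]. Nfic had 2 and 0 UMIs there. Other unnamed clusters ranged widely. Clusters 26 (Slit3, Gm32647, Mctp1) and 35 (Robo3, Gm29478, Gm5089) had 1749 and 2097 CPM of Nfia over both libraries and 3605 and 3080 of Nfib, in the range of clusters of the cortical lineage. Cluster 13 (B020031H02Rik, Gm45680, Dchs2) had 118 CPM of Nfia and 327 of Nfib over both libraries, and cluster 18 (Rarb, Ikzf1, Ebf1) had 167 and 355. Cluster 14, led by Sox1ot, Rmi2 and Stk33, had 1184 and 1562 CPM.

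**Figure D2:**
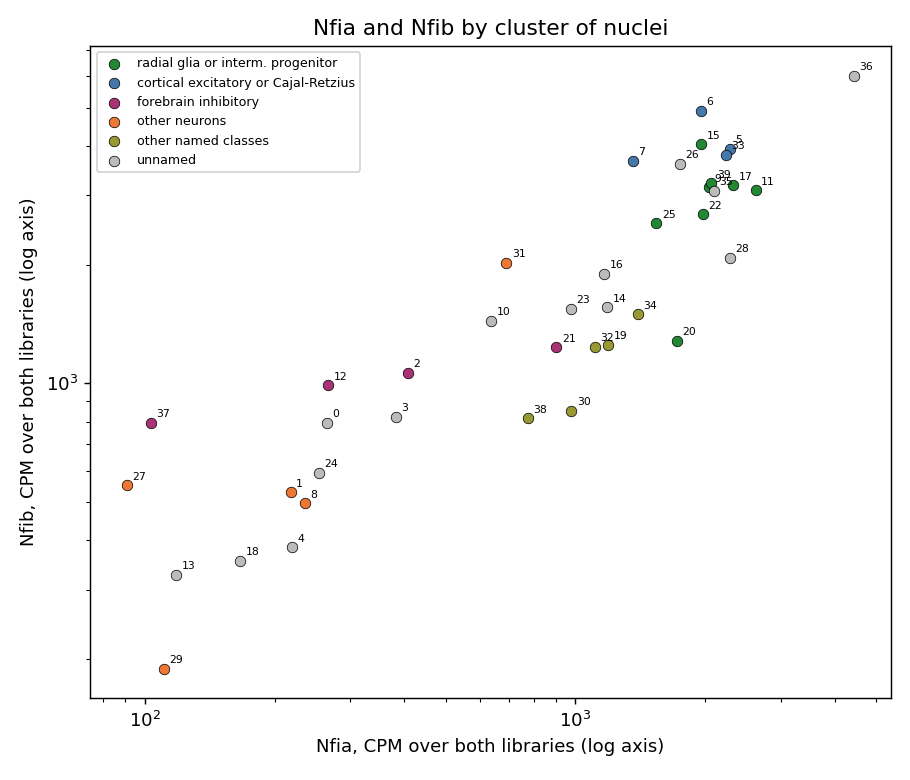
Nfia against Nfib (CPM over both libraries, log axes) for clusters with at least 50 nuclei, coloured by class group and labelled by cluster number. Clusters of the cortical lineage gather at the upper right below cluster 36, neurons of other kinds lie at the lower left, and cluster 20 lies to the right of its Nfib level.

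The balance of Nfia and Nfib differed between kinds of nuclei. Nfib made up 61.5% of the UMIs of both genes in radial glia-like nuclei of the wildtype-labelled library [60.1 to 62.9] and 58.6% in the knockout-labelled one [57.1 to 60.0]. The share was 67.8% [67.1 to 68.5] and 67.9% [67.1 to 68.6] in cortical excitatory neuron-like nuclei, and 75.5% [73.5 to 77.4] and 72.3% [70.1 to 74.5] in forebrain inhibitory neuron-like nuclei. In dividing radial glia-like nuclei it was 53.6% and 54.9%. The difference lay mostly with cluster 20 of that class (Ano1, C030005K06Rik, Aldh1l1), where Nfib made up 42.6% [39.2 to 46.1] and 42.9% [39.1 to 46.7], while cluster 17 (Creb5, Etl4, Diaph3) had 56.9% and 59.1%. These shares compare nuclei and not the abundance of both genes, whose lengths differ.

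Over all classes Nfic was low, and its intervals overlapped between all neighbours in the order of classes in both libraries. Radial glia-like nuclei had 59.3 CPM [44.8 to 77.0] of Nfic and cortical excitatory neuron-like nuclei 15.8 [11.6 to 21.0] in the wildtype-labelled library, a log2 ratio of 1.91 [1.32 to 2.50], against 29.4 [19.5 to 42.5] and 18.0 [13 to 24.4] in the knockout-labelled one, a ratio of 0.70 [-0.04 to 1.43]. That second ratio turned to -0.83 when genes were centred within each library before clustering, and to -0.52 without the second division of clusters.

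Detection in single nuclei followed the same lines. Each nucleus was thinned at random to 1000 UMIs, so that depth was equal, and shallower nuclei were left out (14 radial glia-like nuclei in each library). Nfia was then seen in 80.9% of radial glia-like nuclei [76.6 to 84.8] and 78.1% [73.4 to 82.3], and Nfib in 90.5% [87.0 to 93.2] and 87.7% [83.8 to 91.0]. Before thinning, Nfia was seen in 91.8% and 94.8%. In cortical excitatory neuron-like nuclei Nfib was seen in 95.8% [94.4 to 96.9] and 93.1% [91.0 to 94.7] at equal depth, and Nfix in 36.7% [33.8 to 39.6] and 38.8% [35.4 to 42.3]. In other excitatory neuron-like nuclei Nfia was seen in 11.1% [8.88 to 13.7] and 15.1% [12.6 to 17.9]. No class is known to lack these genes, so the share that free RNA gives was not measured. Barcodes under the gene minimum held Nfib at 925 and 715 CPM, above the 484 and 550 CPM of other excitatory neuron-like nuclei, and low shares are therefore not read as expression. The lowest shares were in other neuron-like nuclei, with 4% [0.488 to 13.7] and 10.2% [3.40 to 22.2] for Nfia and 6% [1.26 to 16.6] and 18.4% [8.76 to 32.0] for Nfib. These had median depths of 2469 and 2850 UMIs before thinning, against 2108 and 2280 in radial glia-like nuclei. Nfic was seen in 5.84% of radial glia-like nuclei [3.69 to 8.70] and 3.13% [1.57 to 5.54], and in 1.80% [1.10 to 2.76] and 1.54% [0.799 to 2.68] of cortical excitatory neuron-like nuclei. In Cajal-Retzius cell-like nuclei it was in 0 of 36 and 0 of 33, which allows shares of nuclei with a UMI at this depth of up to 8.33% and 9.09%. Before thinning it was seen in 5.26% and 2.94% of them.

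**Figure D3:**
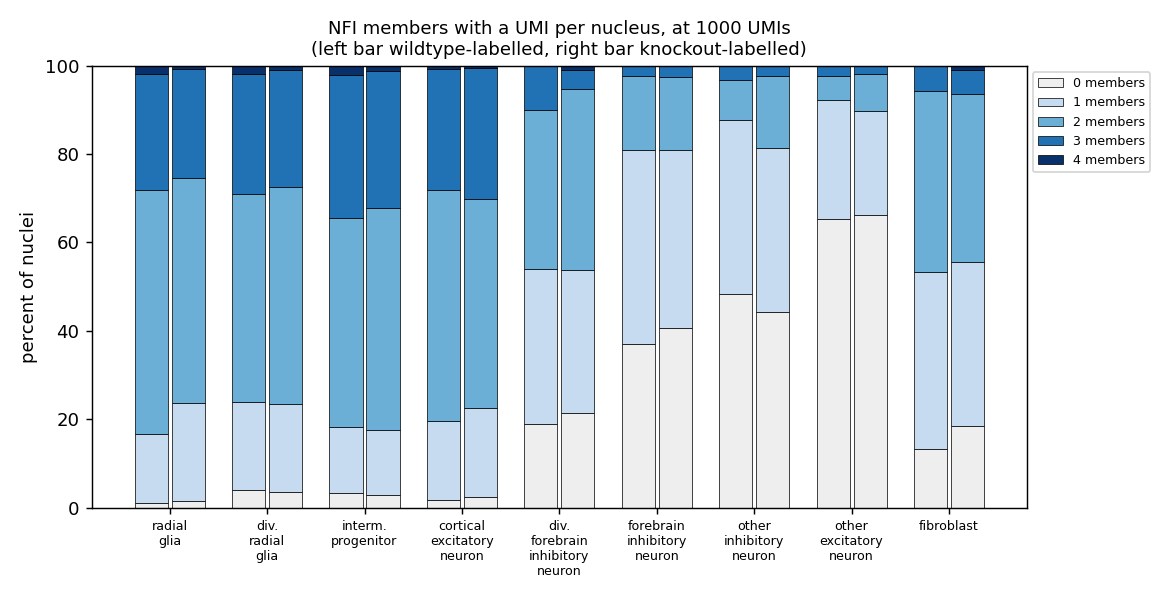
Share of nuclei (percent) with a UMI of 0 to 4 NFI members after thinning to 1000 UMIs, in 9 classes; left bars are the wildtype-labelled and right bars the knockout-labelled library. Nuclei with no member make up 1.06% and 1.42% of the radial glia-like class and 65.3% and 66.1% of the other excitatory neuron-like class.

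Nfia and Nfib were found together about as often as their single shares gave in radial glia-like and cortical excitatory neuron-like nuclei, and more often in other excitatory and forebrain inhibitory neuron-like nuclei. The share with both cannot exceed the lower single share. Where both genes were seen in most nuclei, it could lie only a little above the product. The values therefore describe each class and do not show that classes differ in joint detection. In radial glia-like nuclei Nfia and Nfib were both seen in 72.9% and 68.7% at equal depth, and the product of their single shares was 73.2% and 68.5%. In cortical excitatory neuron-like nuclei both were seen in 71.3% and 68.9%, beside products of 70.1% and 67.2%. In other excitatory neuron-like nuclei both were seen in 6.21% and 8.16%, and the product was 2.72% and 3.64%. In forebrain inhibitory neuron-like nuclei the shares were 13.7% and 14.0%, beside 10.7% and 10.5%. Other pairs of members did not all go this way: Nfib and Nfic were both seen in 1.06% and 0.566% of forebrain inhibitory neuron-like nuclei, below products of 1.47% and 0.883%. Whether differences between the nuclei of a class move with this surplus was not tested.

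Across classes the patterns of Nfia, Nfib and Nfix were the most alike. Over 18 points (9 classes in each of 2 libraries, so that points of 1 class or 1 library are not independent) Pearson's r of log2 CPM was 0.97 between Nfib and Nfix, 0.93 between Nfia and Nfix and 0.91 between Nfia and Nfib. Among 10008 genes Nfix was the gene most like both Nfia and Nfib. Gm11266, the RNA antisense to Nfib, was among the 3 most alike for each, with r of 0.94 to Nfib, 0.96 to Nfix and 0.92 to Nfia. Gpc4, which codes for the cell surface proteoglycan glypican 4, had r of 0.92 to Nfia, and Lix1 r of 0.94 to Nfib. Nfic stood apart, with r of 0.48 to Nfia, 0.34 to Nfib and 0.42 to Nfix. The genes most like Nfic were Sec23b, a coat protein of vesicles leaving the endoplasmic reticulum, with r of 0.88, Dnajc24 with 0.88 and Mipol1 with 0.87.

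Between the libraries, all 4 members had lower levels in the knockout-labelled one when all kept nuclei were summed. The log2 ratio of the knockout-labelled over the wildtype-labelled library was -0.22 [-0.25 to -0.19] for Nfia, -0.26 [-0.29 to -0.24] for Nfib, -0.32 [-0.38 to -0.26] for Nfix and -0.18 [-0.37 to 0.01] for Nfic. None of the 4 was past 1.5-fold. Of 15528 genes with at least 100 UMIs 2.72% were, and the median of those genes was -0.01, with 90% of them between -0.31 and 0.42. The makeup of the libraries differed as well. Cortical excitatory neuron-like nuclei made up 17.4% and 12.3% of the wildtype-labelled and knockout-labelled library, intermediate progenitor-like nuclei 5.31% and 3.86%, and unnamed nuclei 36.4% and 46.1%. A setting added after the data were seen weighted the knockout-labelled clusters by their sizes in the wildtype-labelled library. The ratios were then -0.045 for Nfia, -0.053 for Nfib, -0.10 for Nfix and -0.09 for Nfic. Whether the makeup brought about the lower levels was not tested. With 1 library per genotype, makeup and label cannot be told apart.

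In radial glia-like, intermediate progenitor-like and cortical excitatory neuron-like nuclei the ratios of Nfia and Nfib were nearer to 0 than over all nuclei. In cortical excitatory neuron-like nuclei the log2 ratio was -0.03 [-0.09 to 0.03] for Nfia, -0.03 [-0.07 to 0.01] for Nfib and 0.02 [-0.10 to 0.13] for Nfix. In intermediate progenitor-like nuclei it was 0.01 [-0.10 to 0.11] for Nfia, 0.05 [-0.04 to 0.14] for Nfib and -0.22 [-0.44 to -0.0045] for Nfix. In radial glia-like nuclei Nfia was level, at 1922 and 1921 CPM, and the log2 ratio was -0.18 [-0.26 to -0.10] for Nfib and -0.21 [-0.40 to -0.01] for Nfix. For Nfib it was -0.064 with a minimum of 200 genes and -0.33 without the second division of clusters. In other excitatory neuron-like nuclei Nfia was higher by 0.31 [0.14 to 0.48] and Nfib by 0.18 [0.07 to 0.30]; over the alternatives these went from -0.13 and -0.14 at a Leiden resolution of 0.5 to 0.88 for Nfia with a minimum of 1000 genes and 0.65 for Nfib without the highest doublet scores. Over 16 classes, 9 of 55 pairs of a member and a class were past 1.5-fold, 2 higher and 7 lower in the knockout-labelled library. The same held for 18.4% of all pairs of a gene and a class with at least 20 UMIs, so the count of members is near that of any gene.

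**Figure D4:**
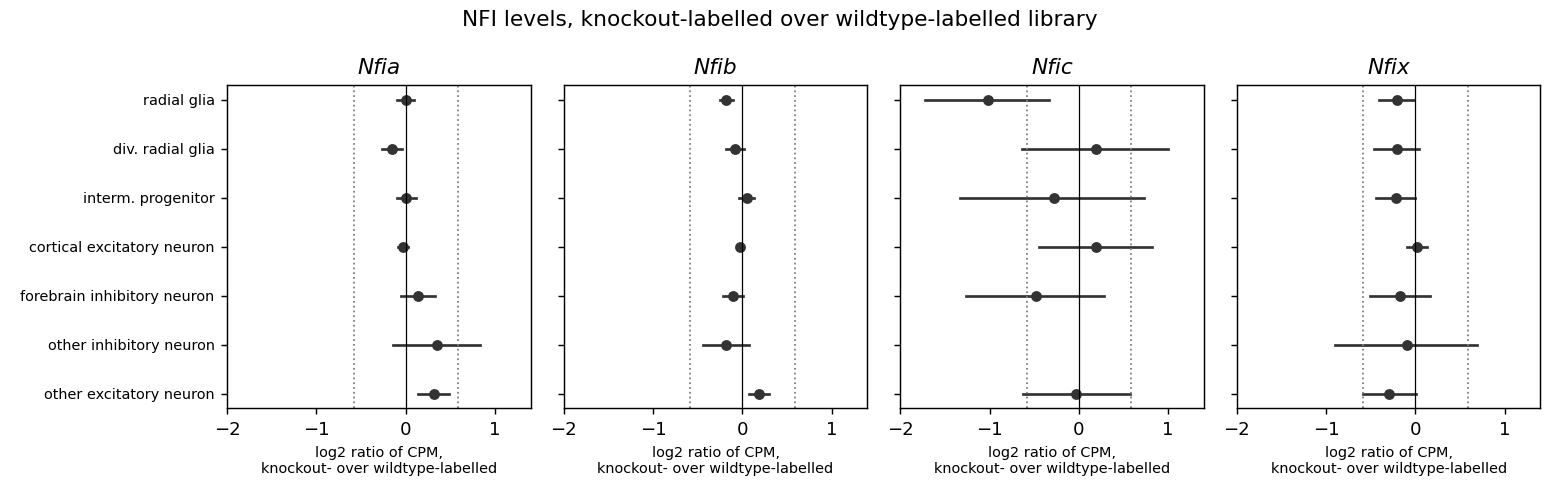
Log2 ratio of CPM, knockout-labelled over wildtype-labelled library, for each member in 7 classes; lines are exact 95% intervals for counting error and dotted lines mark 1.5-fold. Points of Nfia and Nfib lie between the dotted lines in all 7 classes, and Nfic in radial glia-like nuclei lies at -1.01; Nfic had under 20 UMIs in other inhibitory neuron-like nuclei and is not drawn there.

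In the 7 largest classes the only pair past 1.5-fold was Nfic in radial glia-like nuclei, at 59.3 against 29.4 CPM from 56 and 28 UMIs, a log2 ratio of -1.01 [-1.72 to -0.33]. At a Leiden resolution of 0.5 this Nfic ratio was -0.64. Among genes of 20 UMIs or more in these nuclei, 17.6% were past that fold. The share was 15.8% for dividing radial glia-like nuclei, 17% for those like intermediate progenitors and 9.94% for those like cortical excitatory neurons. It was 13.1% for nuclei like forebrain inhibitory neurons, 10.9% for other excitatory and 22.9% for other inhibitory neuron-like ones. Different clusters held most of the radial glia-like class in the 2 libraries: cluster 9 (Creb5, Gm29260, Tfap2c) held 67.8% of it under the wildtype label and 46.8% under the knockout label, and clusters 22 (8030451A03Rik, Gm29683, Tnc) and 25 (Pax3, Cyp26b1, Hs3st3a1) the rest. Within cluster 9 the log2 ratio of Nfic was -0.56 [-1.40 to 0.23], that of Nfib -0.01 [-0.11 to 0.09] and that of Nfix 0.11 [-0.14 to 0.35]. Within clusters 22 and 25 together the ratio was -1.16 [-2.68 to 0.29] for Nfic, from 11 and 8 UMIs, -0.28 [-0.40 to -0.16] for Nfib and -0.31 [-0.65 to 0.03] for Nfix. Among the smaller classes, Nfib in endothelial cell-like nuclei was 1440 CPM [1298 to 1594] in 48 wildtype-labelled and 758 [671 to 853] in 64 knockout-labelled nuclei, a log2 ratio of -0.93 [-1.16 to -0.70]. There too the clusters were unequal, with 2 and 14 nuclei in cluster 42, whose Nfib was 432 CPM. In cluster 41 Nfib was 1766 and 952 CPM in 21 and 19 nuclei, and in cluster 38 it was 964 and 724 CPM in 25 and 31 nuclei.

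Partners and targets of NFI factors in brain development were compared from a list of 26 genes. Over all kept nuclei 22 of them had at least 100 UMIs, and none was past 1.5-fold between the libraries in either direction, beside 2.72% of all genes. Their median log2 ratio was 0.05, beside -0.01 for all genes. In radial glia-like nuclei 14 had enough UMIs, and 2 were past 1.5-fold, both higher in the knockout-labelled library, beside 6.31% of all genes of 100 UMIs or more in these nuclei. Aldh1l1, an enzyme of folate metabolism that marks astrocytes, was 55.1 CPM from 52 UMIs against 108 from 103 UMIs, a log2 ratio of 0.97 [0.48 to 1.48]. Slc1a2, a glial glutamate transporter, was 71.0 against 132 CPM, a ratio of 0.90 [0.46 to 1.35]. The median of the 14 was 0.18, beside -0.04 for all genes of that class. Both genes varied over the clusters whose sizes differed between the libraries. In cluster 9 the log2 ratio of Aldh1l1 was -0.28 [-1.85 to 1.15], from 13 and 7 UMIs, and that of Slc1a2 was 0.73 [-0.16 to 1.64], from 22 and 24 UMIs. In the other radial glia-like nuclei the ratios were 0.60 [0.05 to 1.17] and 0.48 [-0.04 to 1.02].

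Between radial glia-like and cortical excitatory neuron-like nuclei the linked genes had a wide range of ratios. The list joins glial genes with neuronal adhesion genes, so a wide range was set by its makeup. It is therefore not read as a difference between the members and their targets, and the spread of all genes is not given here. In the wildtype-labelled and knockout-labelled libraries, radial glia-like over cortical excitatory neuron-like nuclei gave log2 ratios of 2.40 and 2.63 for Sox9, a partner of NFIA in astrocyte formation, 2.70 and 2.58 for Zbtb20, a zinc finger factor of the hippocampus, and 1.00 and 1.12 for Mmd2, a target of SOX9 and NFIA. Apcdd1, a further target of that pair, gave 0.01 [-0.40 to 0.40] and 0.26 [-0.12 to 0.63]. Among the neuronal adhesion genes of the list, L1cam, Cntn2 and Tnr went the other way. The ratios were -2.06 and -2.03 for L1cam, -2.37 and -2.41 for Cntn2 and -3.30 and -3.09 for Tnr. Nrcam did not, with 0.58 [0.42 to 0.75] and 0.50 [0.33 to 0.67]. Cdh2 gave 0.05 [-0.07 to 0.16] and -0.22 [-0.35 to -0.10]. Slc1a3, Fabp7, Tnc, Hes1 and Hes5 also stand in the list of radial glia markers that named the class, so their ratios describe the naming. Of the astrocyte genes in the list, Gfap had 4 UMIs in each library over all kept nuclei and Aqp4 had 9 and 20. Others had more, with 205 and 269 UMIs for Aldh1l1, 245 and 298 for Aldoc, 249 and 300 for S100b and 1619 and 2372 for Slc1a2.

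**Figure D5:**
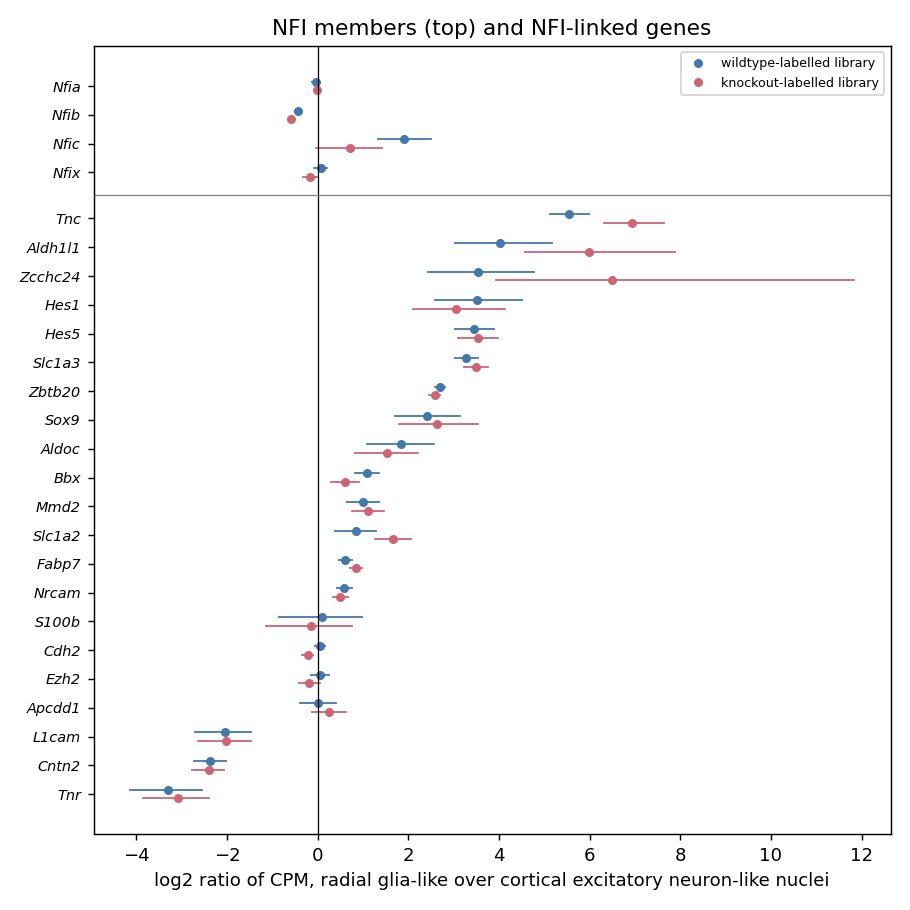
Log2 ratio of CPM, radial glia-like over cortical excitatory neuron-like nuclei, for the 4 members (above the line) and the NFI-linked genes with at least 20 UMIs in these classes; blue is the wildtype-labelled and red the knockout-labelled library, lines are exact 95% intervals for counting error. Nfia, Nfib and Nfix lie within 0.6 of 0, and linked genes reach from -3.30 (Tnr) to 6.94 (Tnc). Tnc is also a marker that named the radial glia-like class, and the list was made of glial and neuronal genes.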

How the data were processed

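Single-nucleus RNA of whole fetal mouse brain was measured in 2 libraries, 1 per genotype, with the 10x Genomics 3′ kit. The values are raw UMI counts, one deposited matrix per library. The file headers name Cell Ranger 6.1.1, whereas the submitters' processing notes name Cell Ranger 3.0.1, STAR and GRCm39. Whether intronic reads or strand were used is not given in the sources used here. No barcode held under 500 UMIs.

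Nuclei with at least 500 genes and at most 5% mitochondrial UMIs were kept; 2969 and 3904 barcodes fell under the gene minimum, and 108 and 227 exceeded the mitochondrial limit. Before clustering, each nucleus was brought to a total of 10000 and the logarithm taken. Variable genes (2000 per library, without the members, Cav1, Cav2, mitochondrial, Xist, Tsix and Y-linked genes), 30 principal components, 15 neighbours and the Leiden method with resolution 1 gave the clusters (scanpy 1.11.5, leidenalg 0.10.2), with no correction between libraries. A cluster with at least 3 markers of one class and 2 of another was divided once more, at resolution 0.25. A name needed 3 markers at 2-fold above the other clusters, and at 1.5-fold within each library, with more markers of that class than of any other; it also needed an own marker among the 10 leading genes or a large share of the list. The word dividing needed 5 markers of mitosis. These naming and division rules were set after the clusters were seen. Scrublet's own threshold marked 0 nuclei in each library, so it had not worked and doublets were kept in the main values; removing the 8% of highest scores was an alternative.

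UMIs were summed per class and library and given as CPM with exact Poisson intervals; shares have exact Clopper-Pearson intervals, and log2 ratios the conditional exact binomial interval (scipy 1.17.1). No tests were run. A gene was called past 1.5-fold. For named genes, the 4 members were always taken, with the 3 genes of highest Pearson correlation to each of log2(CPM + 10) over named classes with at least 50 nuclei in each library, among genes with at least 500 UMIs; linked genes were named where past 1.5-fold, and clusters by their 3 leading genes. Linked genes named for their ratio between classes, and the astrocyte genes named for their UMIs, were chosen after their values were seen. The interval and call were tested on simulated counts. The members, the lists and the comparisons were chosen with earlier results of these data known. By identifier, 54749 features (98.8%) matched GENCODE M39. The third cortical neuron cluster is not described here.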

Additional observations from a re-analysis of the deposited data

Results flagged for a closer look

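For Nfia and Nfib the knockout-labelled library lay above the wildtype-labelled one in some small classes and below it in others, with counting intervals on opposite sides of 0. The log2 ratio of Nfia was 1.55 [0.29 to 3.00] in other neuron-like nuclei, from 7 and 24 UMIs, and -0.50 [-0.76 to -0.24] in endothelial cell-like nuclei. That of Nfib was 0.38 [0.01 to 0.76] in mural cell-like nuclei, from 92 and 181 UMIs, and -0.93 [-1.16 to -0.70] in endothelial cell-like nuclei. The differences between these classes were not tested, since each class has 1 library per genotype.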

How the results depend on the processing

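With 1 library per genotype no replicate could be left out, and all intervals cover counting error only. No paired analysis was possible because each genotype has 1 library. Nfic rests on 442 and 451 UMIs in all, which limits every statement on it. The cause of each shift below was not tested, unless named. Over all kept nuclei the knockout-labelled over wildtype-labelled log2 ratio moved past its counting interval with nuclei thinned to 1000 UMIs (Nfia -0.18, Nfib -0.23) and with clusters weighted by their wildtype-labelled sizes (Nfia -0.045, Nfib -0.053, Nfix -0.10). The ratio of radial glia-like over cortical excitatory neuron-like nuclei, in the wildtype-labelled and knockout-labelled library, was 0.12 and 0.21 for Nfia and -0.51 (wildtype-labelled) for Nfib with a minimum of 200 genes. For Nfib it was -0.57 and -0.73 with a minimum of 1000 genes, -0.54 and -0.66 without the highest doublet scores, and -0.51 and -0.68 at resolution 2. After centring of genes by library the ratio was -0.13 and -0.16 for Nfia, -0.75 (knockout-labelled) for Nfib, 1.02 and a reversed -0.83 for Nfic, and -0.28 and -0.76 for Nfix. Without the second division of clusters, added after seeing the data, it was -0.23 (knockout-labelled) for Nfia, -0.54 and -0.86 for Nfib, 0.94 and a reversed -0.52 for Nfic, and -0.35 and -0.79 for Nfix. Thinning gave -0.37 for Nfix in the knockout-labelled library. Pairs of a member and a class past 1.5-fold numbered 9 of 55, against 5 of 49 at resolution 2 and 4 of 41 without the second division; the other settings gave shares from 6 of 55, when scaled by the median of gene ratios, to 10 of 47, without the highest doublet scores. NFI-linked genes past the fold numbered 0 higher and 0 lower, against 2 higher with a minimum of 20 UMIs, and 1 higher and 1 lower at a lower fold limit. No genotype ratio was given for Nfic in radial glia-like nuclei after centring and Nfix in other inhibitory neuron-like nuclei with a minimum of 200 genes (under 20 UMIs), or in intermediate progenitor-like nuclei without the second division (fewer than 50 nuclei so named). Of the other values recomputed, 262 stayed within their intervals and 49 did not. By Spearman correlation 1 of the 3 genes most like Nfia, and 1 of those most like Nfib, stayed among the first 3.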

Other observations

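Barcodes under the gene minimum, left out of the values above, also held NFI UMIs. In them Nfib was 925 CPM [879 to 972] in the wildtype-labelled and 715 [680 to 750] in the knockout-labelled library, Nfia 271 [247 to 298] and 210 [191 to 229], and Nfix 398 [369 to 430] and 323 [299.6 to 347]. Nfix in these barcodes was thus above its level in the kept nuclei of either library, at 266 and 213 CPM, whereas Nfia and Nfib were below theirs. The unnamed cluster 0, which had the lowest UMI counts of the clusters with at least 50 nuclei and was led by the haemoglobin genes Hbb-y, Hba-x and Hbb-bs, had a like pattern, with 265 CPM of Nfia, 795 of Nfib and 367 of Nfix over both libraries.

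The unnamed cluster 28, led by Gm29478, Rspo2 and Gm20757, had Nfia at 2235 and 2343 CPM, in the range of the cortical lineage, with Nfib at 2355 [2147 to 2578] and 1746 [1550 to 1961]. Nfib made up 51.3% and 42.7% of the UMIs of both genes there, beside 61.5% and 58.6% in radial glia-like nuclei.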
